A study of Rattus norvegicus with 12 samples.

Results

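The comparison described here is that of a high-fat, high-sucrose weaning diet with a low-fat weaning diet in the islets of rat offspring whose mothers had gestational diabetes (GDM). It is defined by the sample labels, but it and the gene lists below were chosen with earlier results of these data known. Counts within those lists are therefore descriptions. The comparison takes 6 of the 12 libraries of the study, across every gene of the deposited table. Of these, 3 are from the group GDM-HFS (GDM dam, high-fat sucrose diet) and 3 from the group GDM-LF (GDM dam, low-fat diet). All animals were Sprague-Dawley rats, an outbred strain. Both groups share the same maternal treatment: their dams received a diet with 45% of energy as fat plus sucrose, begun when the dams were 3 weeks old, for 6 weeks before mating, and went on with it through pregnancy and suckling, and this diet is what brought on GDM. The pups were then weaned to either diet and kept on it for 12 weeks. Their islets were isolated at an age of 15 weeks. The remaining 6 libraries are the matching diet pair, Lean-HFS and Lean-LF, from dams on a diet with 10% fat. They serve here to test whether a diet difference depended on the dam. They also entered the scaling, the filter on low values and the shared estimate of spread behind each limma SE and p. There were 6 dams per maternal diet and litters were cut to 8 pups. The labels used here do not say which litter or sex an animal had, or that each library was 1 animal, so each p-value covers only the variation among these libraries, which may be technical.

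Pancreatic islets hold insulin-producing beta cells together with alpha, delta and PP cells, and vessels, matrix-forming cells and resident macrophages. Islet cells answer cytokines through the transcription factor family NF-κB, whose target genes encode chemokines, adhesion molecules and its own inhibitors, and through interferon signalling. Beta cells couple glucose to insulin release through mitochondrial oxidative phosphorylation. They are also known for modest antioxidant defences, in which superoxide dismutases turn superoxide into hydrogen peroxide.

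After collagenase digestion the islets were hand-picked, and their RNA, depleted of ribosomal RNA, was sequenced with a strand-keeping kit. Reads assigned to genes numbered 24525747, 24110859 and 11469290 in GDM-HFS libraries 1, 2 and 3, against 13967330, 21345209 and 18248510 in GDM-LF libraries 1, 2 and 3. The values below, called scaled values, are reads per gene scaled to a common library size. They are not divided by gene length, so they compare libraries and not genes. The islet label fitted the libraries: the insulin genes Ins1 and Ins2 held 31.9%, 32.1% and 34.4% of the reads outside ribosomal RNA in GDM-HFS islets, against 30.3%, 22.0% and 34.4% in GDM-LF islets. GDM-LF 2 stood apart from the others, with the lowest insulin share and the highest mean log2 level of acinar markers, 12.3, against 8.56 and 8.35 in the other 2 GDM-LF libraries and 10.1, 9.74 and 10.8 in GDM-HFS 1, 2 and 3. Counts and medians of gene lists below are therefore also given with libraries left out. Shares of all genes have no library left out unless another fit is named. Where a count with a library left out has no share beside it, it cannot be set against all genes. A median followed by a range has the lowest and highest median of the 6 fits that leave out 1 library. Ribosomal RNA made up 4.34%, 1.84% and 2.55% of gene reads in GDM-HFS libraries and 8.55%, 8.35% and 7.0% in GDM-LF libraries. These ranges did not overlap (2.91% ± 1.29 against 7.97% ± 0.844, SD, n = 3 each; two-sided exact permutation p = 0.1, the smallest that 3 against 3 allows), and the part of ribosomal RNA in the gene differences was not tested. Titles carry the letter K for GDM-HFS 3, GDM-LF 1 and GDM-LF 2 and G for the other libraries, with no stated meaning. Differences within each letter are given for the main lists.

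In islets of GDM offspring weaned to the high-fat sucrose diet, most transcripts of cytokine and acute-phase genes were lower, and most of those of respiratory chain genes were higher, than in GDM offspring weaned to the low-fat diet, but no single gene passed the test. In bulk islets, fewer cells of a type and less RNA per cell cannot be told apart. Of 12340 genes tested with limma, 0 (0.0%) had a Benjamini-Hochberg adjusted p under 0.05. The lowest adjusted p was 0.470. At an unadjusted p under 0.05 there were 1188 genes (9.63%), of which 520 (4.21%) were higher and 668 (5.41%) lower in GDM-HFS. edgeR on the recovered reads also called 0 genes, with 1289 (10.4%) at an unadjusted p under 0.05. DESeq2 on the same reads called 33 genes, 6 higher (0.0486%) and 27 lower (0.219%). Without GDM-LF 3, limma called 40 genes, 15 higher (0.122%) and 25 lower (0.203%). 11 genes were in both of these sets. In 916 genes (7.42%) every GDM-HFS library was above every GDM-LF library, and in 816 (6.61%) every one was below. The 5th and 95th percentiles of the log2 difference over all genes were -0.98 and 0.56, with a median of -0.00. Names below are given as values and not as changes, since the test called none of them.

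**Figure D1:**
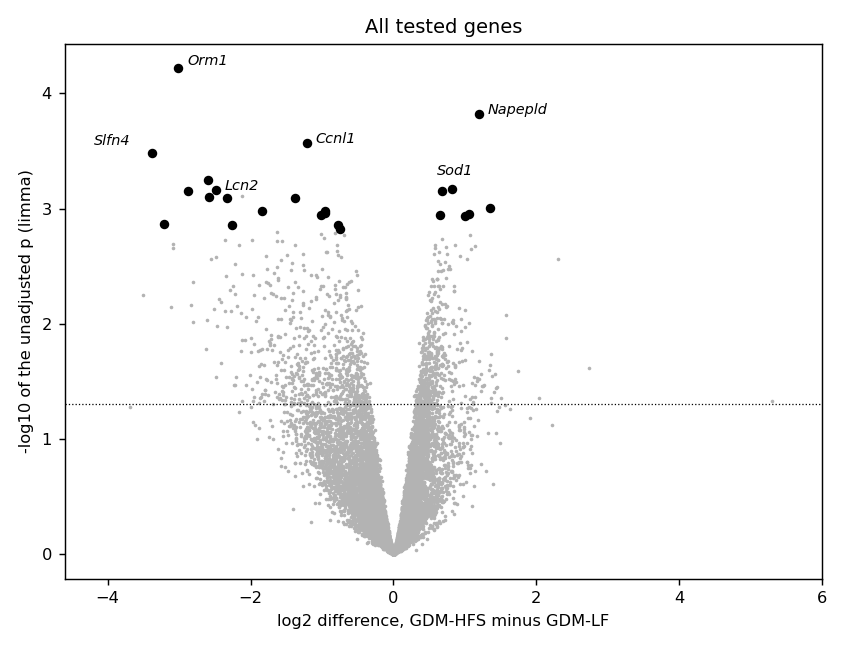
Each grey point is a tested gene, 12340 in all, with the log2 difference in scaled value (GDM-HFS minus GDM-LF) on the x axis and -log10 of the unadjusted limma p on the y axis. Black points are the 24 named genes and the dotted line marks the level of 0.05. Orm1 has the lowest p, and the widest difference is that of Fam111a, at 5.29.

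Among the 24 genes of lowest unadjusted p, 7 were higher and 17 lower in GDM-HFS islets. In 23 of the 24 the 3 GDM-HFS libraries did not overlap the 3 GDM-LF libraries, which is what a choice by lowest p favours. Each kept its direction in every one of the 22 other settings for single genes in which it was tested. A stricter filter on low values, which is among these settings, left the genes of lowest level untested. DESeq2 called 18 of the 24. The adjusted limma p was 0.470 for each.

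Sod1, the copper-zinc superoxide dismutase of the cytosol (chr11:33982764-33988340 in rn5), had scaled values of 4031, 4102 and 4365 in GDM-HFS islets, against 2307, 2339 and 2460.0 in GDM-LF islets. The 2 groups lay far apart relative to their spread (4166 ± 176 against 2369 ± 80.8, SD, n = 3 each). Its log2 difference was 0.81 ± 0.185 (SE; unadjusted p = 0.000682). Park7, which encodes DJ-1, a redox-sensitive protein that guards cells against oxidative damage, read 1277, 1265 and 1549.7 in GDM-HFS and 818, 833 and 942 in GDM-LF, a log2 difference of 0.65 ± 0.158 (unadjusted p = 0.00113). All 3 GDM-HFS libraries were above all 3 GDM-LF libraries for both genes. Napepld (chr4:9983118-10003406 in rn5), the phospholipase that releases N-acylethanolamines such as anandamide from membrane lipid, had 155, 94.3 and 98.4 in GDM-HFS islets, against 40.4, 47.3 and 60.5 in GDM-LF islets. Its difference was 1.19 ± 0.229 on the log2 scale (unadjusted p = 0.000152; DESeq2 adjusted p = 0.00884). GDM-HFS 1 was the highest library for Napepld, and even the lowest GDM-HFS library exceeded every GDM-LF library.

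Mest, an imprinted gene expressed from the paternal copy, had 287, 145 and 287 in GDM-HFS and 89.9, 61.4 and 128 in GDM-LF (log2 difference 1.35 ± 0.321, unadjusted p = 0.000995). GDM-HFS 2 came nearest to the GDM-LF range without entering it. Creld1, a membrane protein of the endoplasmic reticulum with EGF-like domains, read 484, 394 and 446 in GDM-HFS and 254, 245 and 332 in GDM-LF. Lrrc10b had 140.3, 136 and 214 in GDM-HFS, against 75.9, 56.4 and 105 in GDM-LF, and Tmem179 had 464, 387 and 603 in GDM-HFS, against 239.6, 172 and 326 in GDM-LF. Their log2 differences were 0.68 ± 0.155 for Creld1, 1.05 ± 0.255 for Lrrc10b and 1.00 ± 0.243 for Tmem179.

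**Figure D2:**
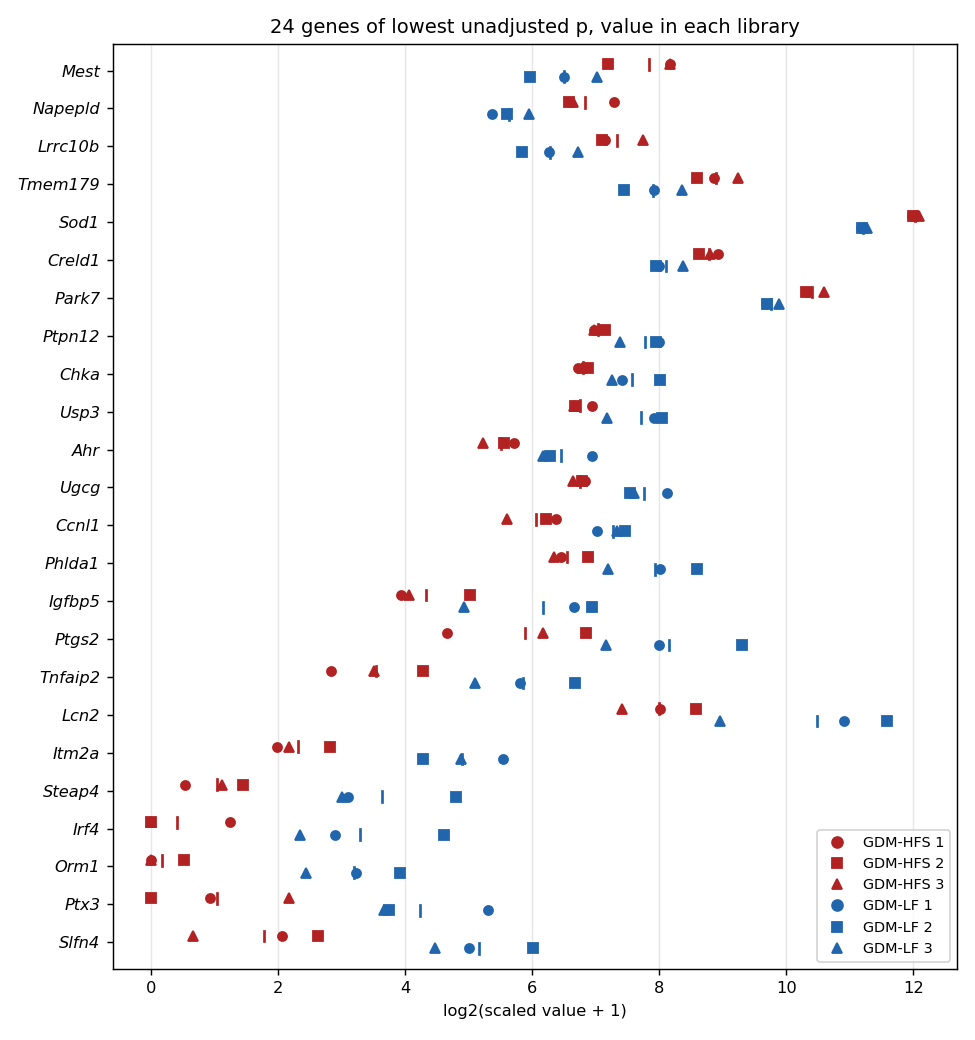
The x axis is log2(scaled value + 1) and each row is 1 of the 24 genes of lowest unadjusted p, with GDM-HFS libraries in red above GDM-LF libraries in blue, marker shape giving the replicate and the short vertical line the mean. The 7 genes at the top are higher in GDM-HFS and the 17 below are lower, and Igfbp5 is the only row of the 24 in which the groups overlap.

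The lower genes included 4 acute-phase genes. Lcn2 (chr3:16763059-16766404 in rn5), the iron-siderophore-binding protein lipocalin 2 that many epithelia make during inflammation, had 256, 382 and 169 in GDM-HFS islets, against 1930.4, 3079.7 and 497 in GDM-LF islets. GDM-LF 3 was well below the other 2 GDM-LF libraries yet above all 3 GDM-HFS libraries, and the log2 difference was -2.49 ± 0.568 (unadjusted p = 0.000696; -1.94 without GDM-LF 2). Orm1, the acute-phase plasma protein alpha-1-acid glycoprotein, gave 0, 2 and 0 reads in GDM-HFS libraries and 22, 50 and 15 reads in GDM-LF libraries. Orm1 had the lowest p of all genes (unadjusted p = 6.07e-05), with a log2 difference of -3.02 ± 0.525 that rests on few reads and on the added pseudocount. Steap4, a metalloreductase induced by cytokines, had 0.451, 1.73 and 1.16 in GDM-HFS and 7.56, 26.8 and 7.02 in GDM-LF. Ptx3, a long pentraxin that binds microbes and complement, had 0.902, 0 and 3.47 in GDM-HFS and 38.5, 12.4 and 11.7 in GDM-LF.

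Others of the 24 are known as cytokine-induced or immune genes. Tnfaip2, induced by tumour necrosis factor, had 6.09, 18.3 and 10.4 in GDM-HFS islets, against 54.8, 101 and 33.3 in GDM-LF islets, a log2 difference of -2.32 ± 0.540 (unadjusted p = 0.000809). Ptgs2, the inducible cyclooxygenase that makes prostaglandin precursors, had 24.1, 114 and 71.2 in GDM-HFS and 255, 630.1 and 143 in GDM-LF, and the groups did not overlap. Irf4, a transcription factor of lymphoid and myeloid cells, was at 1.35, 0 and 0 in GDM-HFS and 6.42, 23.4 and 4.09 in GDM-LF. Slfn4, an interferon-induced member of the Schlafen family in rodents, had 3.16, 5.18 and 0.579 in GDM-HFS, against 31.0, 63.7 and 21.1 in GDM-LF, and showed the widest log2 difference of the 24, -3.38 ± 0.705. Phlda1, a pleckstrin-homology protein induced by growth factors and stress, had 86.4, 116 and 79.9 in GDM-HFS and 257, 384 and 146 in GDM-LF.

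The rest of the lower genes have other roles. Ccnl1, a cyclin that acts in RNA splicing, had 81.9, 73.0 and 47.5 in GDM-HFS islets, against 129, 176 and 160.3 in GDM-LF islets (log2 difference -1.21 ± 0.248, unadjusted p = 0.000269). Ahr, the aryl hydrocarbon receptor, had 51.4, 46.2 and 36.5 in GDM-HFS and 122, 76.4 and 70.8 in GDM-LF. Igfbp5, a binding protein for insulin-like growth factors, had 14.2, 31.3 and 15.6 in GDM-HFS and 100.1, 122 and 29.2 in GDM-LF. GDM-LF 3 fell inside the GDM-HFS range of Igfbp5, which made it the exception to the separation of the other 23. Usp3, a deubiquitinase of histones, had 122, 101 and 100.2 in GDM-HFS and 241, 263 and 144 in GDM-LF, and Ugcg, which makes glucosylceramide, had 113, 109 and 98.4 in GDM-HFS and 279, 186 and 194 in GDM-LF. Chka, the kinase that starts phosphatidylcholine synthesis, had 105, 116 and 109 in GDM-HFS and 170.0, 258 and 152 in GDM-LF. Their log2 differences were -0.96 ± 0.230 for Ahr, -1.84 ± 0.443 for Igfbp5, -0.96 ± 0.230 for Usp3, -1.01 ± 0.245 for Ugcg and -0.77 ± 0.192 for Chka. Itm2a, a small integral membrane protein, differed by -2.58 ± 0.597 and Ptpn12, a tyrosine phosphatase of focal adhesions, by -0.75 ± 0.188.

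Whether these differences depended on the dam was asked with the interaction of diet and dam, that is, the diet difference in GDM offspring minus that in lean offspring. No gene passed: 0 of 12340 (0.0%) in limma, with a lowest adjusted p of 0.784, and 730 (5.92%) at an unadjusted p under 0.05, 305 (2.47%) higher and 425 (3.44%) lower. edgeR and DESeq2 likewise called 0. The interaction had an unadjusted p under 0.05 in 21 of the 24 named genes, and 11 of the 24 had the same sign of diet difference in lean offspring. The interaction shares the GDM libraries with the difference that chose these genes, so it gives no separate support. Ribosomal RNA took 24.7% to 39.0% of gene reads in Lean-HFS libraries and 1.84% to 30.4% in Lean-LF libraries, and its part in the interaction was not tested. Sod1 read 2849, 2840.0 and 2125 in Lean-HFS and 1997, 2005 and 2708 in Lean-LF islets, a log2 difference of 0.22, and its interaction was 0.59 ± 0.262 (unadjusted p = 0.0411). The 3 GDM-LF libraries thus lay within the Lean-LF range for Sod1, and the 3 GDM-HFS libraries lay above every other library. Napepld had 123, 105 and 109.7 in Lean-HFS and 123, 91.7 and 119 in Lean-LF, so it was the GDM-LF group that stood below the other 3. Its lean difference was 0.02 and its interaction 1.17 ± 0.324 (unadjusted p = 0.00298). Tnfaip2 had 23.8, 18.4 and 26.5 in Lean-HFS and 5.35, 26.2 and 17.9 in Lean-LF, with an interaction of -3.00 ± 0.764 (unadjusted p = 0.00165). Here too the GDM-LF libraries stood apart, above all 9 others.

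**Figure D3:**
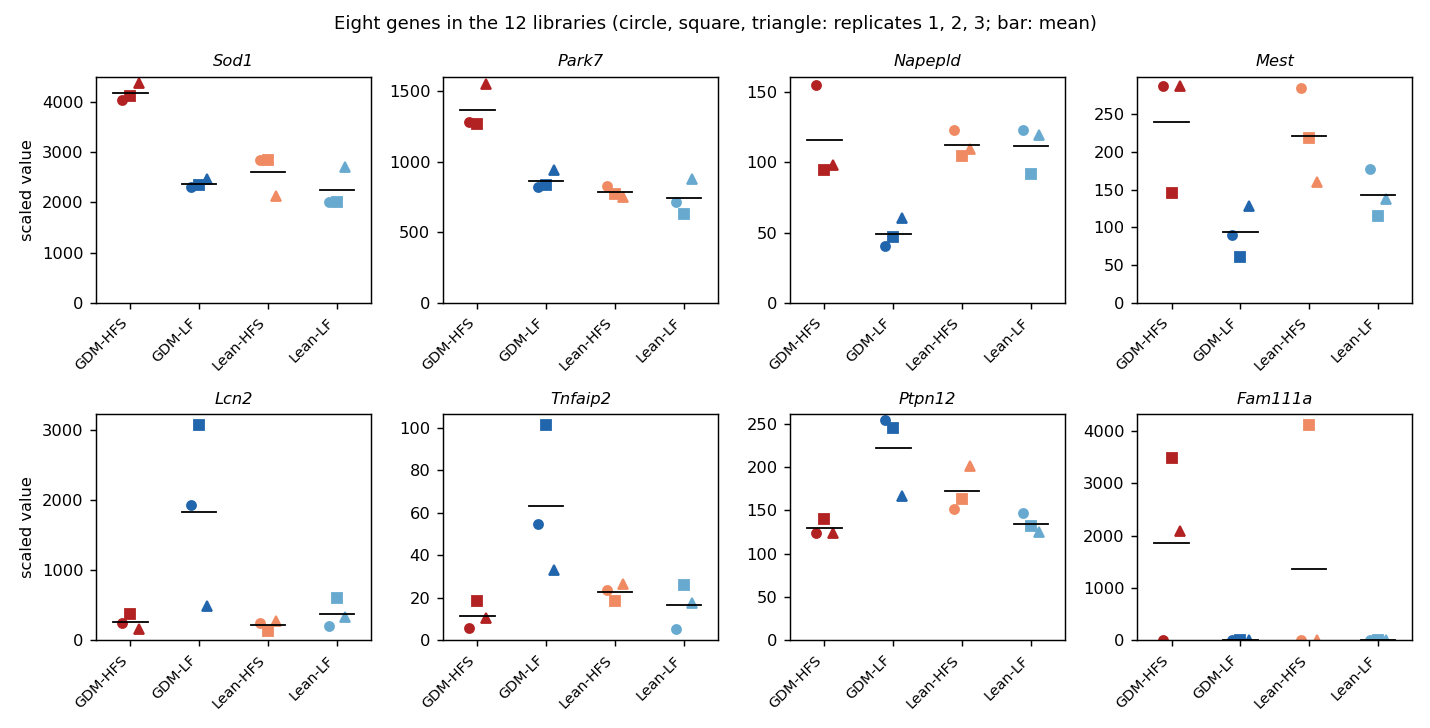
Scaled value (y axis, from 0) of 8 genes in each of the 12 libraries, with GDM-HFS, GDM-LF, Lean-HFS and Lean-LF along the x axis, marker shape giving the replicate and the bar the group mean. Sod1 and Park7 are highest in GDM-HFS, Napepld is lowest in GDM-LF, Lcn2 and Tnfaip2 are highest in GDM-LF on average, and Fam111a, described under the other observations, is either near 0 or above 2000.

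Of the chemokine, cytokine and NF-κB target genes, 35 of 37 were lower in GDM-HFS islets, against 6225 of all 12340 genes (50.4%). Their median log2 difference was -1.44, against -0.00 over all genes. An unadjusted p under 0.05 was found for 26 lower members, against 5.41% of all genes, and 17 members were lower without overlap, against 6.61% of all genes. The count of 26 became 13 without GDM-LF 2, where 6.02% of all genes reached that level in the same direction, with a median of -0.79, and 17 without GDM-HFS 1, while 35 or 36 of the 37 were lower whichever of the 6 libraries was left out. Within letter G (GDM-HFS 1 and 2 against GDM-LF 3) the median was -0.84, and within letter K (GDM-HFS 3 against GDM-LF 1 and 2) it was -1.72. In lean offspring the median diet difference of the same genes was 0.31, and 18 of the 37 had an interaction below 0 with an unadjusted p under 0.05, against 3.44% of all genes. The mean log2 level of the list was 4.49, 5.03 and 4.78 in GDM-HFS libraries, against 5.78, 7.49 and 5.49 in GDM-LF libraries, and 4.16, 4.61 and 5.14 in Lean-HFS libraries, against 4.02, 4.76 and 4.46 in Lean-LF libraries. All 3 GDM-LF libraries were above all 9 others, and GDM-LF 2 was far above the rest.

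To show where such genes carry a recognition sequence of NF-κB, the 250 bases before the transcription start were searched for the κB motif on both strands in RefSeq promoters (build GRCr8). The motif was present in 12 of the 27 list members that matched a promoter (44.4%), in 2 of 11 acute-phase and complement genes (18.2%), in 1 of 57 oxidative phosphorylation genes (1.75%), in 1 of 17 stellate and matrix genes (5.88%) and in 3.54% of all 33469 promoters. The first of these lists names known NF-κB targets, so a high share was built into it and gives no support from these data. List members are counted by gene and the 33469 by promoter, so the shares differ in unit. A match is a description of the letters and shows no binding. The 4 windows below belong to 2 chemokines and 2 acute-phase genes described here, and run 5′ to 3′ on the gene's strand, with the motif in capitals. They lie at chr14:17479322-17479571 for Cxcl1, chr14:17467256-17467505 for Cxcl2, chr3:36081781-36082030 for Lcn2 and chr4:27054770-27055019 for Steap4, all on the minus strand.
Cxcl1: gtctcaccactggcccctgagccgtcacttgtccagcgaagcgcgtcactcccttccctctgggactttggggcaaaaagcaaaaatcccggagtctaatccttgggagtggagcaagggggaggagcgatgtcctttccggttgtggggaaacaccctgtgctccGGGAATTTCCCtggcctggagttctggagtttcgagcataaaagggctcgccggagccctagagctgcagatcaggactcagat
Cxcl2: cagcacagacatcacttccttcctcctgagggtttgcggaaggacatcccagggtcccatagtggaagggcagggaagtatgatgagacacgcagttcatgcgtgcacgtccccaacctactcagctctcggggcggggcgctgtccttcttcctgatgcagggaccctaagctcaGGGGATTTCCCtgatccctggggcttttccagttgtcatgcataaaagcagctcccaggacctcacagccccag
Lcn2: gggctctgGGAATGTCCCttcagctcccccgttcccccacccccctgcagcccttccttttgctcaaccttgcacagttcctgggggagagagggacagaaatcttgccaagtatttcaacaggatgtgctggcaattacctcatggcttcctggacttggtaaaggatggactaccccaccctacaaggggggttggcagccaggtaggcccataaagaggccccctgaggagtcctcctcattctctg
Steap4: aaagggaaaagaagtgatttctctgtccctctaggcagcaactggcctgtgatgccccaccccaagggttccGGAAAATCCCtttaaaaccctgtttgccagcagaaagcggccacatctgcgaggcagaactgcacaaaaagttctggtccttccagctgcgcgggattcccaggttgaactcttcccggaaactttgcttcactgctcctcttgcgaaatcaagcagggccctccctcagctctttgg
The first motif base lay 84 bases before the start in Cxcl1, 74 in Cxcl2, 242 in Lcn2 and 178 in Steap4.

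Cxcl1 and Cxcl2 encode chemokines that draw neutrophils. Cxcl1 had 26.6, 93.3 and 151 in GDM-HFS islets, against 182, 1829.9 and 177 in GDM-LF islets, a log2 difference of -2.41 ± 0.931 (unadjusted p = 0.0219). Cxcl2 had 9.47, 47.1 and 35.9 in GDM-HFS and 67.3, 613 and 81.3 in GDM-LF, a difference of -2.51 ± 0.798 (unadjusted p = 0.00745). Neither overlapped between groups, but GDM-LF 2 alone was far above the other libraries, and without it the log2 differences were -1.30 for Cxcl1 and -1.50 for Cxcl2. Ccl2, which draws monocytes, had 151, 346 and 892 in GDM-HFS and 1104, 6346 and 406 in GDM-LF, and GDM-LF 3 lay inside the GDM-HFS range. Il6 encodes interleukin 6 and had 41.5, 188 and 199 in GDM-HFS, against 268, 1487 and 402 in GDM-LF. Il1a, interleukin 1 alpha, had 0.677, 3.24 and 0 in GDM-HFS, against 9.45, 49.6 and 7.31 in GDM-LF, and Ccl20, the ligand of the receptor CCR6, had 3.83, 8.42 and 4.63 in GDM-HFS, against 14.4, 22.8 and 12.9 in GDM-LF. The log2 differences were -2.22 ± 0.670 for Il6, -3.09 ± 0.818 for Il1a and -1.44 ± 0.404 for Ccl20.

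Most effectors and regulators named here followed the same direction. They include members picked for low p after their values were seen. Bcl3, another member of the list, differed by only -0.15 on the log2 scale (limma, unadjusted p = 0.637). Icam1, the adhesion molecule that holds leukocytes, had 53.9, 105 and 47.5 in GDM-HFS islets and 174, 347 and 135 in GDM-LF islets (log2 difference -1.63 ± 0.412, unadjusted p = 0.00159). Nfkbiz, a nuclear regulator of NF-κB, had 80.5, 80.3 and 46.9 in GDM-HFS and 155, 248 and 114 in GDM-LF. Birc3, an inhibitor of apoptosis in the receptor pathway of tumour necrosis factor, had 83.9, 103 and 86.9 in GDM-HFS and 169, 495 and 129 in GDM-LF. Sod2, the manganese superoxide dismutase of mitochondria and a textbook target of NF-κB, had 3699.6, 4832 and 5048 in GDM-HFS, against 8667, 10153 and 6857 in GDM-LF, a log2 difference of -0.91 ± 0.296 (unadjusted p = 0.0084). Sod2 was thus lower and Sod1 higher in GDM-HFS, each without overlap of the libraries. Of the 37 list members 2 did not follow and were higher, by at most 0.27 on the log2 scale. Il1r1, the receptor of interleukin 1, was 1 of these, with 3545, 3293 and 2432 in GDM-HFS and 3476, 2192 and 3482 in GDM-LF (log2 difference 0.03 ± 0.231).

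**Figure D4:**
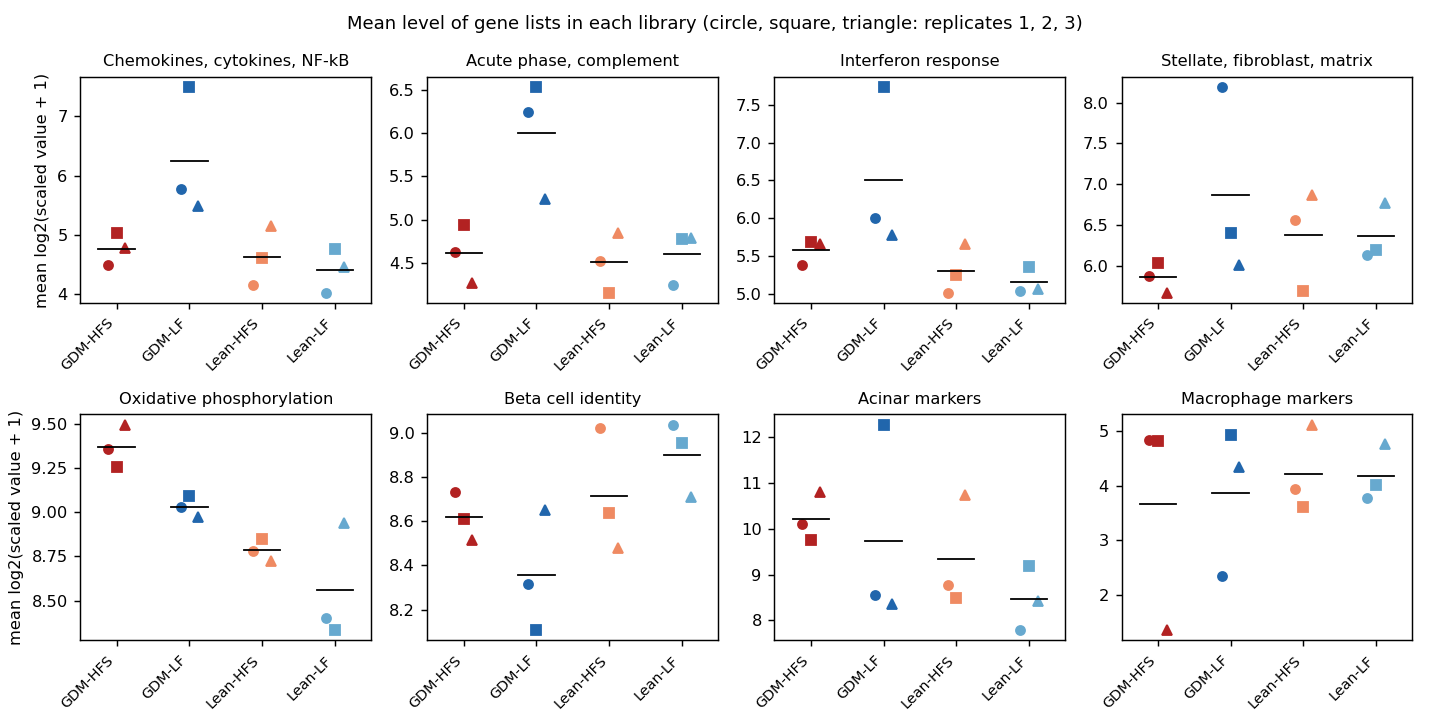
Mean log2(scaled value + 1) of the tested members of 8 gene lists (y axis) in each library, with the 4 groups along the x axis, marker shape giving the replicate and the bar the group mean; y axes differ and do not start at 0. The chemokine and NF-κB list and the acute phase list are above all other libraries in the 3 GDM-LF libraries, GDM-LF 2 is apart in the interferon and acinar lists, GDM-LF 1 in the matrix list, and oxidative phosphorylation is highest in GDM-HFS.

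Of the acute phase and complement genes, 17 of 19 were lower in GDM-HFS, with a median log2 difference of -1.39. An unadjusted p under 0.05 was found for 11 lower members, against 5.41% of all genes, and 8 were lower without overlap, against 6.61% of all genes. The count of 11 was 7 without GDM-LF 1. The median was -1.13 without GDM-LF 2, -0.33 within letter G, -2.12 within letter K and -0.05 in lean offspring. C3, the central complement component, had 74.0, 54.4 and 26.1 in GDM-HFS islets, against 429, 1045 and 83.4 in GDM-LF islets, with a difference of -2.80 ± 0.817 (unadjusted p = 0.00435). Its GDM-LF values spread widely, GDM-LF 3 being only slightly above GDM-HFS 1. Cfb, factor B of the alternative pathway, had 17.6, 29.6 and 4.63 in GDM-HFS and 62.0, 264 and 37.7 in GDM-LF, and C1s, a protease of the classical pathway, had 24.6, 27.4 and 17.4 in GDM-HFS and 68.8, 119 and 46.5 in GDM-LF. Hp, haptoglobin, had 2.48, 2.81 and 0.579 in GDM-HFS and 6.42, 9.86 and 9.65 in GDM-LF. Fgb, the beta chain of fibrinogen, overlapped, with 23774, 13703 and 13557 in GDM-HFS and 15397, 13164 and 14225 in GDM-LF.

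Of the interferon response genes, 39 of 40 were lower in GDM-HFS, with a median log2 difference of -0.68, and 15 had an unadjusted p under 0.05, against 5.41% of all genes. This pattern rested largely on GDM-LF 2: without it 28 of 40 were lower, the median was -0.22 and 3 of 40 had an unadjusted p under 0.05, a share near the 6.02% of all genes in that fit. The count of 15 was 6 without GDM-HFS 1 and 8 without GDM-HFS 3. Isg15, which encodes a small modifier related to ubiquitin, had 23.7, 30.2 and 42.3 in GDM-HFS and 38.2, 566 and 49.1 in GDM-LF, so that GDM-LF 2 alone lay far from the other libraries and GDM-LF 1 lay within the GDM-HFS range. Ifitm3, which blocks virus entry, had 27.5, 32.4 and 19.7 in GDM-HFS and 81.2, 174 and 38.3 in GDM-LF and did not overlap. B2m, the light chain of MHC class I, had 4219, 3417 and 2859 in GDM-HFS and 4463, 6214 and 4199 in GDM-LF. Immediate early genes, which are switched on within minutes of stimulation and also by tissue handling, were lower in 27 of 28, with a median of -0.83. Without GDM-LF 2 this became 15 of 28 and -0.19, and the 8 members with an unadjusted p under 0.05, against 5.41% of all genes, became 1, as also without GDM-HFS 1. The count was 4 without GDM-HFS 2 and 17 without GDM-LF 1. Ier3, a survival gene induced by NF-κB, had 165, 277 and 272 in GDM-HFS and 391, 842 and 305 in GDM-LF.

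Of the stellate, fibroblast and matrix genes, 24 of 25 were lower in GDM-HFS, with a median log2 difference of -0.95 and 8 at an unadjusted p under 0.05, against 5.41% of all genes. The size of this difference rested on GDM-LF 1, without which the median was -0.28 and the count 3. The count was 5 without GDM-HFS 1, 5 without GDM-HFS 3 and 15 without GDM-LF 3. The within-letter medians were -0.13 for G and -1.65 for K. Col3a1, a fibrillar collagen, had 259, 255 and 161 in GDM-HFS, against 4375, 219 and 319 in GDM-LF, so that only GDM-LF 1 was far from the rest. Lum, the collagen-binding proteoglycan lumican, had 9.92, 10.4 and 6.95 in GDM-HFS, against 205, 21.7 and 23.1 in GDM-LF, and Timp1, an inhibitor of matrix metalloproteinases, had 1722, 1332 and 1569 in GDM-HFS, against 2776, 3241 and 1781 in GDM-LF. Both were without overlap, with log2 differences of -2.28 ± 0.727 for Lum and -0.72 ± 0.235 for Timp1. Fn1, fibronectin, was the exception, with 516, 205 and 689 in GDM-HFS and 2487, 208 and 44.5 in GDM-LF, a log2 difference of 0.55 ± 0.995 with overlap. All 18 endothelial markers were lower in GDM-HFS, with a median of -0.50 (-0.79 to -0.27). An unadjusted p under 0.05 was found for 1 of them, Kdr, a share near the 5.41% of all genes, and 0 were without overlap, against 6.61% of all genes. The count of 1 was 2 without GDM-LF 2, against 6.02% of all genes in that fit. It was 8 without GDM-HFS 2, 2 without GDM-LF 3 and 0 without GDM-HFS 1 or GDM-LF 1, fits whose share is not given.

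Nuclear genes of oxidative phosphorylation, which encode subunits of the respiratory chain and of ATP synthase, were higher in GDM-HFS in 63 of 66, against 49.6% of all genes. Their median log2 difference was 0.34. The GDM-HFS libraries lay above the GDM-LF libraries without overlap in 37 of 66, against 7.42% of all genes, and 17 had an unadjusted p under 0.05, against 4.21% of all genes. The mean log2 level of the list was 9.35, 9.26 and 9.49 in GDM-HFS libraries, against 9.03, 9.09 and 8.97 in GDM-LF libraries. The median was 0.37 without GDM-LF 2, 0.34 within letter G and 0.46 within letter K, and between 0.26 and 0.41 whichever of the 6 libraries was left out. The count of 17 was 7 without GDM-HFS 1 and 9 without GDM-HFS 3, GDM-LF 1 or GDM-LF 3. These genes have short transcripts, and short genes relative to long ones were at 0.29, 0.40 and 0.74 in GDM-HFS libraries and at -0.07, 0.56 and 0.14 in GDM-LF libraries on the log2 scale. With the trend of each library with gene length removed, the median was 0.19, with 61 of 66 higher and 14 at an unadjusted p under 0.05. The share of all genes in that fit is not given, so the 14 cannot be set against it. In lean offspring the median diet difference was 0.25, and 1 member had an interaction with an unadjusted p under 0.05, below 0, so a difference between dams was not shown for this list.

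Among its members, Atp5g1, a subunit of the proton-carrying ring of ATP synthase, had 2080.3, 2374 and 2733 in GDM-HFS islets, against 1559, 1368 and 1425 in GDM-LF islets (log2 difference 0.72 ± 0.224, unadjusted p = 0.00676). Atp5b, the catalytic beta subunit, had 5794, 5907 and 6149 in GDM-HFS and 4112, 4535 and 4867 in GDM-LF, and Atp5a1, the alpha subunit, had 2927, 2707 and 2843 in GDM-HFS and 2091, 2013 and 2300.0 in GDM-LF. Both were higher in every GDM-HFS library, by 0.40 ± 0.194 for Atp5b and 0.41 ± 0.162 for Atp5a1 on the log2 scale. Sdhc, a membrane anchor of complex II, had 928, 818 and 967 in GDM-HFS and 619, 617 and 700.2 in GDM-LF. Cox4i1, of complex IV, had 2353, 2466 and 3367 in GDM-HFS and 1706, 2171 and 1856 in GDM-LF. Ndufv1, a flavin-carrying subunit of complex I, had 485, 484 and 594 in GDM-HFS and 341, 419.9 and 369 in GDM-LF. Members of complexes I, II, IV and V were thus among those whose libraries did not overlap.

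Cytosolic ribosomal proteins, also of short transcripts, were higher in 73 of 79, but by a median of 0.19. Of the 79, 0 had an unadjusted p under 0.05, against 4.21% of all genes higher and 5.41% lower. There were also 0 without overlap, against 7.42% higher and 6.61% lower. Without GDM-LF 2 the median was 0.42. In that fit 9 were higher at an unadjusted p under 0.05, against 4.46% of all genes. With the title letter as a covariate 77 of 79 were higher and again 9 reached that level. The share of all genes with that covariate is not given. The median was -0.01 without GDM-HFS 3 and -0.02 without GDM-LF 3, so the direction depended on the libraries kept. Proteasome subunits were higher in 27 of 33 (median 0.21, 0.16 to 0.26). Of these, 10 were higher without overlap, against 7.42% of all genes, and 1 was lower, against 6.61% of all genes. Lysosome and proton pump genes were higher in 22 of 27 (median 0.24, 0.21 to 0.39). An unadjusted p under 0.05 was found for 5 higher members, against 4.21% of all genes, with 1 without GDM-HFS 1 or GDM-HFS 2, 2 without GDM-LF 1 or GDM-LF 2 and 10 without GDM-LF 3. Psap, the precursor of lipid-loosening saposins, had 3794, 3989 and 3069.8 in GDM-HFS and 2399, 2449.6 and 3051 in GDM-LF. Hexa, a subunit of the lysosomal enzyme beta-hexosaminidase, had 965, 983 and 795 in GDM-HFS and 612, 576 and 768 in GDM-LF. Of the antioxidant genes 16 were higher and 16 lower, with a median of 0.02 (-0.06 to 0.14), and without GDM-LF 2 there were 22 higher and 10 lower. Keap1, the cytosolic brake on the factor Nrf2, had 232, 276 and 259 in GDM-HFS and 151, 196 and 219 in GDM-LF, while Nfe2l2, which encodes Nrf2, had 335, 456 and 386 in GDM-HFS and 474, 522 and 479 in GDM-LF. Those 2 genes lay apart without overlap in opposite directions.

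Beta cell identity genes, taken with those of glucose sensing, were higher in GDM-HFS in 24 of 27, with a median log2 difference of 0.33 and 3 members at an unadjusted p under 0.05, against 4.21% of all genes. Without GDM-LF 2, the library with the lowest insulin share, 17 of 27 were higher and the median was 0.19, and the within-letter medians were 0.03 for G and 0.34 for K. The count of 3 was 1 without GDM-HFS 1 and 9 without GDM-LF 3. Isl1, an islet homeobox factor, had 218, 169 and 235 in GDM-HFS and 124, 120.3 and 162 in GDM-LF, without overlap. Slc2a2, the glucose transporter GLUT2, had 7682, 7994 and 5517 in GDM-HFS and 4525, 2890.0 and 6777 in GDM-LF. Pdx1, a master regulator of beta cells, had 700.0, 766 and 595 in GDM-HFS and 421, 455 and 816 in GDM-LF, Nkx6-1 had 529, 339 and 269 in GDM-HFS and 325, 150.2 and 486 in GDM-LF, and Ucn3, a maturity marker, had 246, 201 and 153 in GDM-HFS and 167, 145 and 217 in GDM-LF. These last 4 genes overlapped between groups. In lean offspring the median diet difference of the list was -0.16, and 3 of 27 members had an interaction above 0 with an unadjusted p under 0.05, against 2.47% of all genes.

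The islet hormone genes overlapped between the groups. Ins1 had 1155921, 1145575 and 1511278 in GDM-HFS and 1038399, 834363 and 1191423 in GDM-LF, and Ins2 had 532235, 496952 and 715038 in GDM-HFS and 423299, 377386 and 515915 in GDM-LF. Gcg, glucagon, had 90332, 99527 and 203446 in GDM-HFS and 27059.9, 103499 and 66411 in GDM-LF (log2 difference 1.10 ± 0.683). Sst, somatostatin, had 1666, 1998 and 3081 in GDM-HFS and 1501, 2182 and 1329.6 in GDM-LF. Ppy, pancreatic polypeptide, had 8497, 26511 and 19226 in GDM-HFS and 14082, 5480.5 and 18081 in GDM-LF, and Iapp, amylin, had 28113, 27434 and 31419 in GDM-HFS and 25803, 28235 and 32391 in GDM-LF. Of 18 hormone and granule genes 16 were higher in GDM-HFS (median 0.36, 0.25 to 0.44), and 1, Chga, had an unadjusted p under 0.05, a share near the 4.21% of all genes. The count was 3 without GDM-LF 2, 2 without GDM-HFS 1 or GDM-LF 3 and 0 without GDM-LF 1. The within-letter medians of the 18 genes were 0.04 for G and 0.72 for K. Chga, the granule protein chromogranin A, had 3158, 3383 and 3648 in GDM-HFS, against 1157, 1842 and 2924 in GDM-LF, without overlap (log2 difference 0.88 ± 0.296, unadjusted p = 0.0105). Of 27 secretion and exocytosis genes 24 were higher (median 0.29), and 14 of 27 without GDM-LF 2 (median 0.11). Within letter G their median was -0.09, and within letter K it was 0.33. Of these 27 genes 2 had an unadjusted p under 0.05, near the 4.21% of all genes, and 1 without GDM-LF 2, near the 4.46% of all genes in that fit. The count was 9 without GDM-LF 3 and 1 without GDM-LF 1. Syt5, a calcium sensor of vesicles, had 418, 423 and 545 in GDM-HFS and 206, 139 and 353 in GDM-LF (log2 difference 1.08 ± 0.287, unadjusted p = 0.00223).

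Genes usually silent in mature beta cells were lower in 19 of 20, with a median log2 difference of -0.65. An unadjusted p under 0.05 was found for 3 lower members, against 5.41% of all genes. Without overlap 5 were lower, against 6.61% of all genes. The count of 3 was 9 without GDM-LF 3 and 5 without GDM-HFS 2, fits whose share of all genes is not given. The 1 higher member also had an unadjusted p under 0.05. The difference lay within letter K, at -0.86, and the median within letter G was -0.00. Hk2, a high-affinity hexokinase that beta cells normally lack, had 35.9, 53.8 and 34.7 in GDM-HFS, against 88.0, 117 and 63.8 in GDM-LF. Oat, ornithine aminotransferase, had 54.4, 85.3 and 80.5 in GDM-HFS and 125, 112 and 112 in GDM-LF. Ldha, lactate dehydrogenase A, had 1068, 1206 and 2549 in GDM-HFS and 2485, 1920.1 and 1598 in GDM-LF and overlapped. Sox9, a factor of duct and progenitor cells, had 5.64, 4.75 and 3.47 in GDM-HFS, against 49.1, 17.2 and 14.3 in GDM-LF, a log2 difference of -2.12 ± 0.604 (unadjusted p = 0.00371). The lowest GDM-LF library for Sox9 was above every GDM-HFS library. Of 11 progenitor and dedifferentiation genes, of which Sox9 is 1, 5 were higher and 6 lower, with a median of -0.33 (-0.41 to -0.03). It was -0.03 without GDM-LF 2, -0.13 without GDM-LF 3 and 0.05 within letter G.

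**Figure D5:**
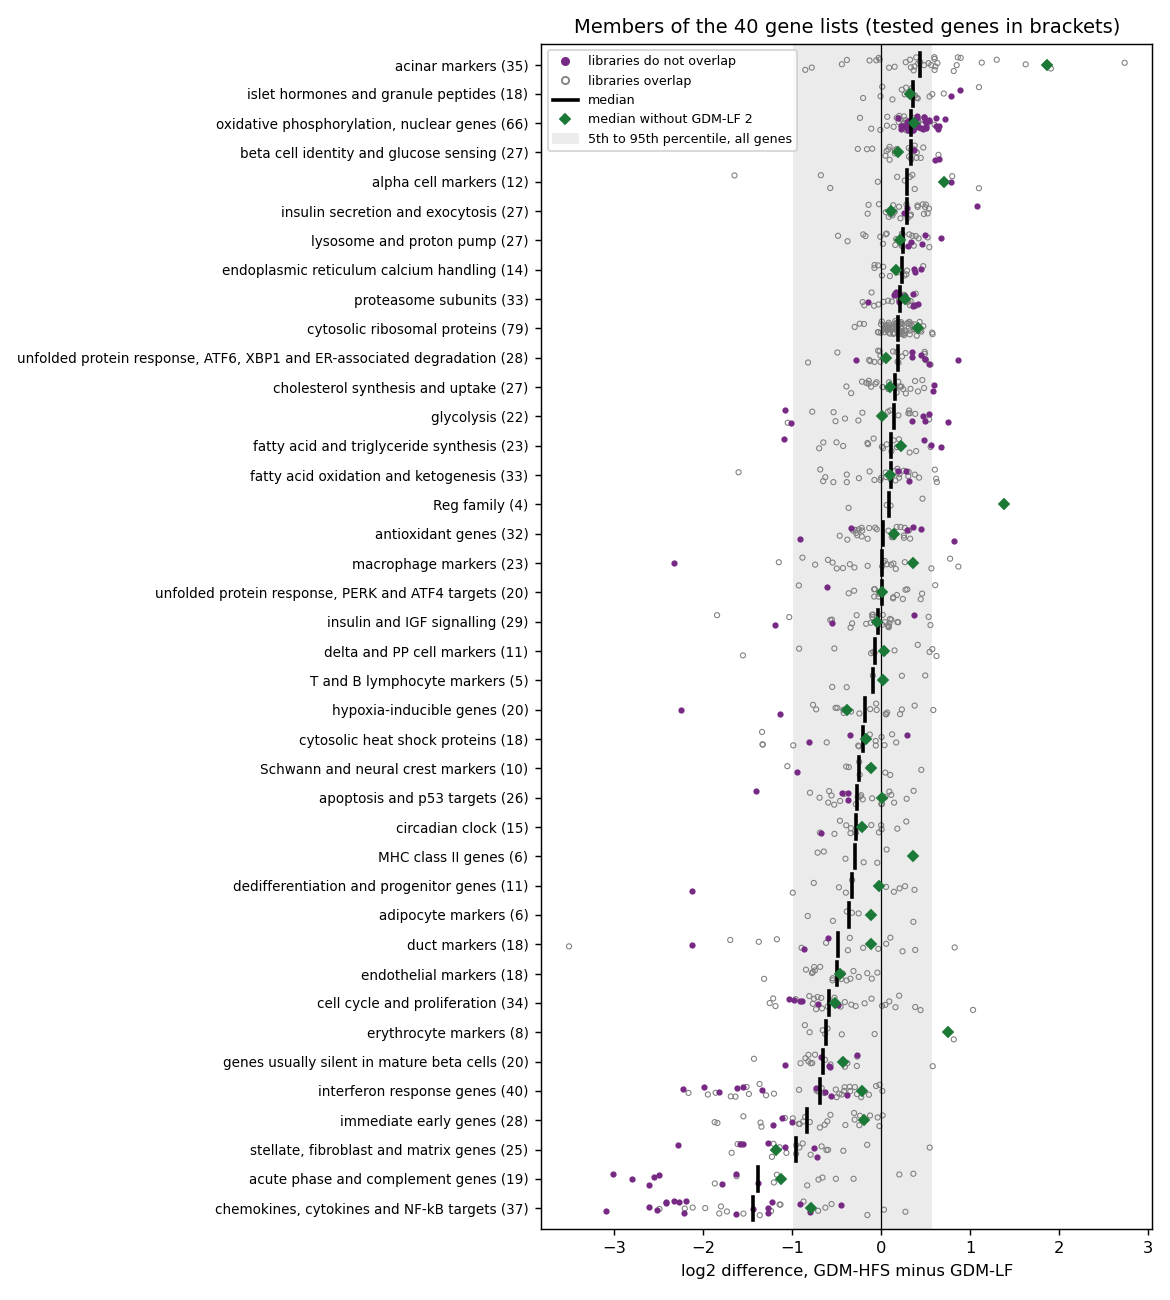
Each point is a tested member of 1 of the 40 gene lists, with its log2 difference (GDM-HFS minus GDM-LF) on the x axis and the lists in rows ordered by their median (black bar); filled points are genes whose libraries do not overlap, green diamonds are the medians without GDM-LF 2, and the grey band is the 5th to 95th percentile of all genes. The 4 lowest lists are chemokine and NF-κB, acute phase, matrix and immediate early genes, and the immediate early and interferon diamonds lie near -0.2.

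Stress and metabolic lists had medians nearer to that of all genes, though some held members that lay apart. Targets of ATF6 and XBP1 and genes of endoplasmic-reticulum-associated degradation were higher in 18 of 28 (median 0.19, 0.06 to 0.35, the lowest without GDM-LF 2 and the highest without GDM-LF 3), and targets of PERK and ATF4 in 11 of 20 (median 0.01, -0.07 to 0.12). Of the 28, 6 were higher and 1 lower without overlap, against 7.42% and 6.61% of all genes. Hspa5, the chaperone BiP, had 15922, 21665 and 12936 in GDM-HFS and 8645, 9905 and 18707 in GDM-LF. Ddit3, which encodes CHOP, had 243, 454 and 320.2 in GDM-HFS and 221, 274 and 402 in GDM-LF, and Chac1 had 167, 217 and 175 in GDM-HFS and 154, 174 and 230.5 in GDM-LF. All 3 overlapped. Dnajb11, a co-chaperone of BiP, had 1208, 1343 and 1183 in GDM-HFS, against 838, 847 and 972 in GDM-LF, without overlap. Endoplasmic reticulum calcium genes were higher in 11 of 14 (median 0.23, 0.12 to 0.22), and cytosolic heat shock genes lower in 13 of 18 (median -0.20, -0.24 to -0.17). Of the 18 heat shock genes 3 were lower and 0 higher at an unadjusted p under 0.05, against 5.41% and 4.21% of all genes. Without GDM-LF 2 it was 1 lower and 0 higher, against 6.02% and 4.46%.

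Among genes of fat metabolism, fatty acid oxidation and ketogenesis genes were higher in 22 of 33 (median 0.12, 0.08 to 0.19), fatty acid and triglyceride synthesis genes in 15 of 23 (median 0.12, -0.03 to 0.22) and cholesterol genes in 18 of 27 (median 0.16, 0.07 to 0.18). Cpt1a, the gatekeeper of mitochondrial fatty acid entry, had 129.9, 152 and 138 in GDM-HFS and 199, 252 and 122 in GDM-LF. Pdk4, which shuts glucose carbon out of mitochondria when fat is burned, had 61.8, 28.3 and 66.6 in GDM-HFS and 57.4, 126 and 63.8 in GDM-LF. The groups overlapped for both of these fat-responsive genes. Srebf1, the regulator of fat synthesis, had 365, 301 and 289.6 in GDM-HFS, against 203, 198 and 289 in GDM-LF, with no overlap but a narrow margin between GDM-HFS 3 and GDM-LF 3, and Fasn, fatty acid synthase, had 566, 462 and 689.7 in GDM-HFS and 553, 455 and 461 in GDM-LF. Glycolysis genes were higher in 13 of 22 (median 0.15, 0.01 to 0.28), hypoxia-inducible genes lower in 13 of 20 (median -0.18, -0.39 to -0.06) and insulin and IGF signalling genes lower in 15 of 29 (median -0.04, -0.06 to 0.05). Without overlap 5 glycolysis genes were higher and 2 lower, against 7.42% and 6.61% of all genes. At an unadjusted p under 0.05, 4 hypoxia-inducible genes were lower and 0 higher, against 5.41% and 4.21%. Without GDM-LF 2 it was 7 and 0, against 6.02% and 4.46%. The within-letter medians of the hypoxia-inducible genes differed in sign, at -0.43 for G and 0.18 for K. Circadian clock genes were lower in 11 of 15 (median -0.28, -0.46 to -0.20) and apoptosis and p53 target genes in 18 of 26 (median -0.27, -0.47 to 0.01, the highest without GDM-LF 2). Cell cycle genes were lower in 26 of 34 (median -0.59; -0.27 without GDM-LF 1, 0.03 within letter G and -0.92 within letter K). Mki67, a marker of dividing cells, had 7.44, 4.10 and 5.79 in GDM-HFS and 63.5, 10.99 and 4.09 in GDM-LF, so GDM-LF 1 stood apart.

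Markers of other cells that a picked islet can carry varied between libraries. Acinar markers were higher in 27 of 35, with a median of 0.44. No acinar gene was without overlap, against 7.42% of all genes higher and 6.61% lower. The median was 1.86 without GDM-LF 2, -0.11 without GDM-LF 1 and -0.31 without GDM-LF 3, so it had no settled sign. Without GDM-LF 2 all 35 were higher, 25 of them at an unadjusted p under 0.05, against 4.46% of all genes in that fit. The within-letter medians were 1.66 for G and 0.33 for K. Prss1, trypsinogen 1, had 24311, 17910.2 and 46329 in GDM-HFS and 6176, 100485 and 5953 in GDM-LF, Cpa1, carboxypeptidase A1, had 8884, 6499 and 11367 in GDM-HFS and 3283, 36451 and 2410.0 in GDM-LF, and Pnlip, pancreatic lipase, had 8778, 12535 and 21469 in GDM-HFS and 2509, 43909 and 3338 in GDM-LF. With the acinar level as a covariate, the medians of the main lists were -1.64 for the chemokine and NF-κB genes, -1.45 for the acute phase genes and 0.34 for oxidative phosphorylation. Reg3b, of the Reg family, had 11319, 2487 and 2381 in GDM-HFS and 2980.4, 20874 and 863 in GDM-LF, and the 4 Reg genes had a median of 0.08 (1.38 without GDM-LF 2 and -0.98 without GDM-LF 3). Duct markers were lower in 13 of 18 (median -0.49, and -0.12 without GDM-LF 2). Alpha cell markers were higher in 8 of 12 (median 0.29), but the median was -0.02 without GDM-HFS 3, 0.01 without GDM-LF 1 and 0.71 without GDM-LF 2. Delta and PP cell markers were lower in 6 of 11 (median -0.07, -0.22 to 0.18).

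Macrophage markers were higher in 12 and lower in 11 of 23, with a median of 0.01, and without GDM-LF 2 there were 20 higher and 3 lower. Their mean log2 level was 4.82, 4.82 and 1.37 in GDM-HFS libraries and 2.35, 4.92 and 4.34 in GDM-LF libraries, so it was low in GDM-HFS 3 and GDM-LF 1. The median difference was 0.91 without GDM-HFS 3 and -0.82 without GDM-LF 1, so it had no settled sign. C1qa, a complement subunit made by macrophages, had 169, 142 and 25.5 in GDM-HFS and 22.7, 70.7 and 74.6 in GDM-LF. Lyz2, lysozyme 2, had 136, 138 and 2.32 in GDM-HFS and 12.8, 266 and 106 in GDM-LF. Cd14, a receptor for lipopolysaccharide, was the only macrophage marker of the 23 without overlap, at 15.1, 22.2 and 1.16 in GDM-HFS, against 27.6, 107 and 31.9 in GDM-LF. That 1 of 23 was lower without overlap is a share near the 6.61% of all genes. MHC class II genes were lower in 5 of 6 (median -0.30). Without GDM-LF 2 only 1 of the 6 was lower (median 0.36), and without GDM-HFS 3 it was 0 of 6 (median 0.69). Erythrocyte markers were lower in 7 of 8 (median -0.61), and without GDM-LF 2 in 1 of 8 (median 0.75). Lymphocyte markers were lower in 3 of 5 (median -0.09, -0.29 to 0.31), Schwann markers in 7 of 10 (median -0.24, -0.40 to -0.12) and adipocyte markers in 5 of 6 (median -0.36, -0.48 to -0.12).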

How the data were processed

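The submitters' processing notes name the aligner STAR 2.5.1b and HOMER 4.9. Reads were counted by the authors over exons of rn5 genes on both strands, per the file headers, so a gene and its antisense partner are not told apart. The header calls the deposited values FPKM, but they are a depth-scaled read signal with no length term: 100.0% of values up to 1000 reads came out whole within 0.1 read, 1.96 to 4.28 reads per unit in the 6 libraries. The planned log-scale test was kept. Values were rescaled by median ratios over 11337 genes above 0 in all 12 libraries. Genes with a mean of at least 1 were tested (12340 of 17407) on log2(value + 1) with limma 3.58.1 (R 4.3.3, trend, 12 libraries in 4 group means), with Benjamini-Hochberg adjustment at 0.05. Fold changes on this scale understate low genes. edgeR 4.0.16 and DESeq2 1.42.0 on recovered reads, without 3 ribosomal RNA entries, were alternatives. Of 986 list genes 958 had an entry, and the genes named are the 24 of lowest unadjusted p, since none passed, the 4 members of highest level in a list, a set chosen for prior interest and, picked after their values were seen, members of low p. The comparison, members and lists were chosen with earlier results of these data known. Same-numbered libraries deviated with correlations of 0.07, -0.08 and -0.08. Replicate libraries differed beyond sampling noise, by 71.7 to 513 chi-square units per gene. The limma script was tested on simulated data. Promoters are RefSeq's, GRCr8.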

Additional observations from a re-analysis of the deposited data

Results flagged for a closer look

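Ptpn12, a tyrosine phosphatase of focal adhesions, is singled out because its diet difference ran in opposite directions in the offspring of the 2 kinds of dam. It had 124, 141 and 125 in GDM-HFS islets, against 254, 245 and 166 in GDM-LF islets, and 152, 164 and 202 in Lean-HFS islets, against 148, 132 and 125 in Lean-LF islets. Every GDM-HFS library was below every GDM-LF library, and every Lean-HFS library was above every Lean-LF library. The interaction was -1.09 ± 0.266 on the log2 scale (limma, unadjusted p = 0.00117) and did not pass after adjustment over all genes (adjusted p = 0.784). The difference in lean offspring was 0.34.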

How the results depend on the processing

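No gene passed in 21 of the 23 alternatives of the diet comparison. DESeq2 gave 33 and leaving out each replicate gave 0 to 40, the 40 being without GDM-LF 3; the cause was not tested. Genes to which DESeq2 gave no adjusted p were left so. The interaction gave 0 throughout its 22. The within-letter values and edgeR without GDM-LF 2 were chosen after seeing the data. Replicate numbers did not pair the libraries, and with the number as a block 0 genes passed (1078 at an unadjusted p under 0.05). All 24 named genes kept their sign in 548 refits, 24 of which brought the gene past the threshold. List medians moved by at least 1 SD of the replicate libraries in 58 of 960 refits. Without rescaling, the median of all genes was 0.07 for diet and 0.42 for the interaction.

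Over the 6 sets that leave out 1 library, the GDM-HFS minus GDM-LF difference was 0.475 to 6.68 points for the insulin share, -5.77 to -4.52 points for ribosomal RNA, -0.19 to 1.76 for the acinar level (-0.09 without GDM-LF 1 and -0.19 without GDM-LF 3, against 0.49) and 0.12 to 0.44 for the length measure. Exact two-sided permutation p was 0.5 for insulin, 0.8 for acinar markers and 0.4 for length. With 3 libraries per group, small differences were not detectable, and genes such as Orm1 rest on few reads.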

Other observations

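Fam111a, chosen after its values were seen, had the widest gap between libraries of all tested genes, 6.96 on the log2 scale, with 9 libraries below and 3 above. It had 4.51, 3490.3 and 2094 in GDM-HFS islets, against 15.9, 4.79 and 5.85 in GDM-LF islets, and 3.60, 4109.9 and 5.94 in Lean-HFS islets, against 2.67, 1.75 and 2.34 in Lean-LF islets. The 3 high libraries are GDM-HFS 2, GDM-HFS 3 and Lean-HFS 2, with 16168, 3616 and 10285 reads, and no library lay between 16 and 2000. DESeq2 called it in GDM offspring (adjusted p = 0.0418) although GDM-HFS 1 was below all 3 GDM-LF libraries, and limma did not (unadjusted p = 0.0462). The next widest gap was that of Sfrp5, a secreted inhibitor of Wnt signalling, 4.09, with GDM-LF 1 alone at 1.89 and the other 11 libraries from 48.0 to 377.

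The 33 genes that DESeq2 called held 4 of the 37 chemokine and NF-κB genes and 4 of the 19 acute phase genes. Each of these was lower in GDM-HFS, a direction in which DESeq2 called 0.219% of all genes. Outside the genes described above, Ccr7, a chemokine receptor of lymphocytes and dendritic cells, was at 1.13, 1.73 and 1.16 in GDM-HFS and 20.8, 52.4 and 2.92 in GDM-LF. Fmod, the collagen-binding proteoglycan fibromodulin, was at 0 in the 3 GDM-HFS libraries and at 29.1, 8.45 and 1.17 in GDM-LF. Cldn2, a tight-junction claudin, was at 0.902, 1.73 and 3.47 in GDM-HFS and 37.0, 51.3 and 1.75 in GDM-LF. GDM-LF 3 was the lowest GDM-LF library for each of these 3 genes, and lay within the GDM-HFS range for Cldn2.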
